A study of Saccharomyces cerevisiae with 36 samples.

Results

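The 43 genes described here encode the machinery that brings proteins into the endoplasmic reticulum (ER), folds and glycosylates them there, and removes those that fail to fold. They were chosen by name, and all 43 were among the 5449 genes measured. By role they comprise 12 folding enzymes and chaperones, 2 genes of the unfolded protein response, 8 genes of ER-associated degradation, 7 translocon genes, 8 genes of the signal recognition particle and its receptor, and 6 oligosaccharyltransferase subunits. Expression was measured on 36 Affymetrix Yeast Genome 2.0 arrays in the haploid Saccharomyces cerevisiae strain BY4741, with 3 biological replicates in each of 12 groups. Exponential cells were kept for 2 h in minimal medium with 1 of 6 pesticides. The doses were 20 mg/L for pyrimethanil, 80 mg/L for diuron, 115 mg/L for MCPA-ME, 160 mg/L for carbofuran, 200 mg/L for alachlor and 220 mg/L for S-metolachlor. Each dose was the IC20 of its pesticide, so that the doses were meant to be equally toxic, and each pesticide had its own untreated control group of the same strain from the same experiment. An unexplained (2) stands in the titles of the 3 arrays with alachlor.

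In yeast, many proteins bound for the ER are recognised on the ribosome by the signal recognition particle, an RNA-protein complex that docks at its receptor in the ER membrane, and cross the membrane through the Sec61 channel. Others are brought in after translation with the help of Sec62 and Sec63. Inside, the Hsp70 protein Kar2 (BiP), protein disulfide isomerases and the oligosaccharyltransferase, which transfers a preassembled glycan to asparagine, help the chain to fold. Unfolded proteins activate the membrane sensor Ire1, which starts the unconventional splicing of HAC1 mRNA, and the Hac1 protein made from the spliced mRNA raises transcription of folding and degradation genes. Proteins that stay unfolded are ubiquitinated at the membrane and passed to the proteasome. Each gene was read by a single probe set, and splicing of HAC1 was not measured.

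The values are probe set intensities in arbitrary units, whose medians per array lay between 1319.6 and 1511.4. No value of the 43 genes lay under the floor of 32 that was set before taking log2. Of the genes deleted in BY4741, LEU2, MET17 and URA3 did not exceed 194.6 on any array, whereas HIS3, of which this strain lacks only a part, lay between 4142 and 11322. The MATa genes STE2, MFA1 and MFA2 did not fall below 8519, and the MATalpha gene STE3 did not exceed 249.6. Over the 43 genes the residual SD between replicates (log2) was 0.206 in the MCPA-ME controls, 0.244 at the MCPA-ME IC20 and 0.212 at the carbofuran IC20, against 0.0795 to 0.120 in the other 9 groups. Over all genes, the array farthest from the mean of its group's others was the second of the MCPA-ME IC20 group, followed by the first of the carbofuran IC20 group.

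Carbofuran changed the most ER genes, and with alachlor none passed the test. By limma, with p adjusted over all 5449 genes and a threshold of 0.05, carbofuran raised 12 of the 43 genes and lowered 10, where 42.2% of all genes were called, 18.4% higher and 23.7% lower. MCPA-ME raised 5 and lowered 3, where 18.6% of all genes were called, 9.97% higher and 8.61% lower. Diuron raised 3 and lowered 0, against a background of 14.4% (8.52% higher and 5.84% lower). At an unadjusted limma p under 0.05, 4 were higher and 0 lower with diuron, where 25.1% of all genes passed in either direction. Pyrimethanil raised 0 and lowered 3, against a background of 16.1% (6.39% higher and 9.71% lower). At an unadjusted limma p under 0.05, 1 was higher and 9 lower with pyrimethanil, where 29.3% of all genes passed in either direction. S-metolachlor raised 1 and lowered 1, where 24.4% of all genes were called, 10.1% higher and 14.4% lower. With alachlor 0 were called by limma, against 5.03% of all genes (3.52% higher and 1.50% lower). At an unadjusted limma p under 0.05, 0 were higher and 2 lower with alachlor, where 16.0% of all genes passed in either direction. For alachlor, limma with array weights, whose estimation stopped before convergence, called 2 lower. The share of all genes called with array weights is not given here, so this count describes the members only. The shares above describe the genes and were not tested as a set.

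**Figure D1:**
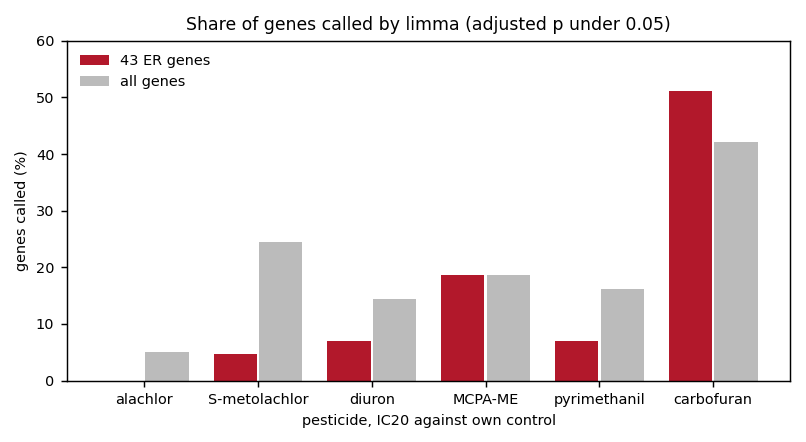
Percentage of genes called by limma at an adjusted p under 0.05 (vertical axis) for each pesticide against its own control (horizontal axis), for the 43 ER genes (red bars) and for all 5449 genes (grey bars). The ER genes reach 51.2% with carbofuran against 42.2% of all genes, and 4.65% with S-metolachlor against 24.4%.

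Of the 258 combinations of a gene and a pesticide, 38 were called, 21 higher and 17 lower. In 33 of these the 3 IC20 values lay beyond all 3 control values. Called or not, the groups did not overlap for 25 of the 43 genes with carbofuran (49.8% of all genes), 15 with diuron (40.2%), 5 with MCPA-ME (18.9%), 10 with pyrimethanil (41.6%), 18 with S-metolachlor (54.9%) and 2 with alachlor (30.8%). By gene, 16 of the 43 were called with no pesticide, 14 were called higher only, 12 were called lower only, and HRD3 was called both ways. Changes were small: the log2 change exceeded 1 in size for 2 genes with carbofuran and for 0 with the other 5 pesticides. The 95% confidence interval of a member's log2 change had a median half-width of 0.194.

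**Figure D2:**
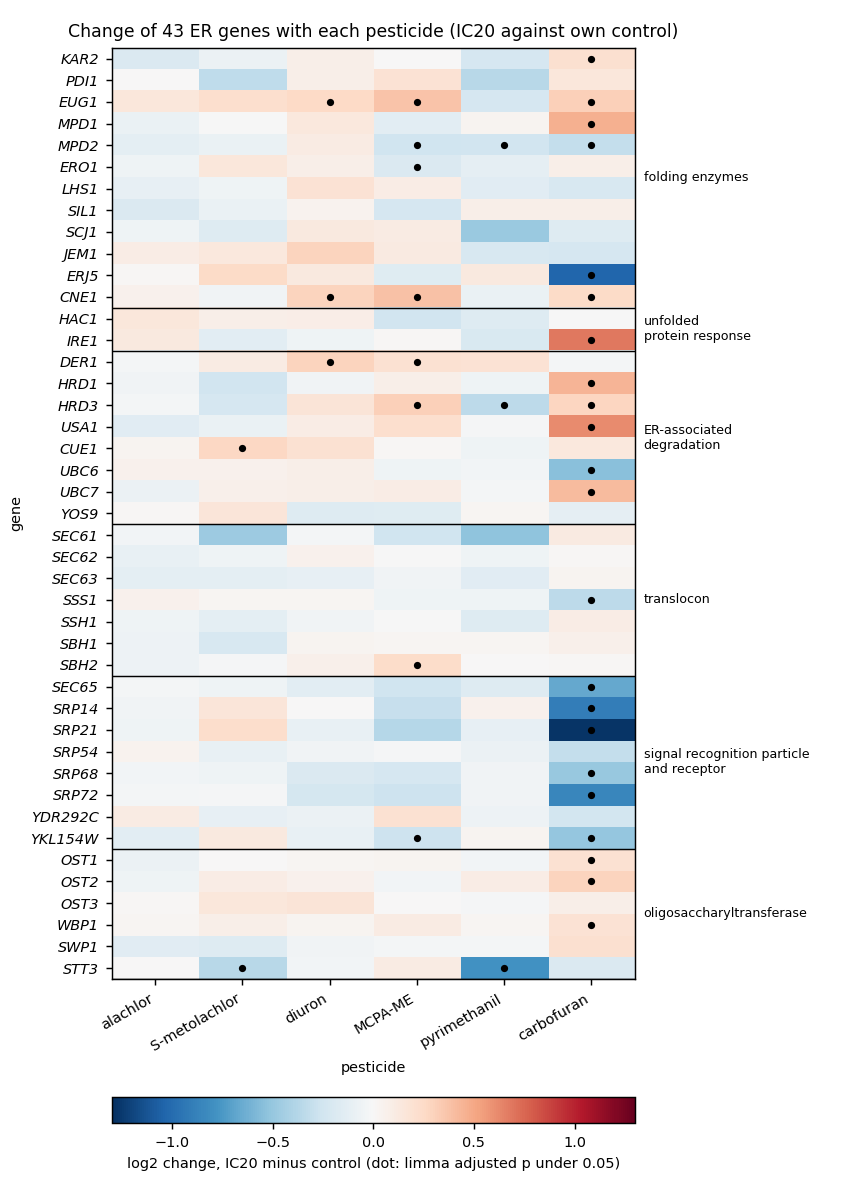
Log2 change (IC20 minus own control, colour scale) of the 43 ER genes (vertical axis, grouped by role) with each of 6 pesticides (horizontal axis), with a dot where limma's adjusted p was under 0.05. Carbofuran holds 22 of the 38 dots, with SRP21 at -1.28 and ERJ5 at -1.03.

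Several counts depended on single arrays. The shares of all genes called without the same arrays are not given, so these counts describe the members only. The number raised by carbofuran was 6 when control array 1 was left out and 7 when IC20 array 2 was, and the number it lowered was 14 without IC20 array 1. The number raised by diuron was 1 without control array 3, IC20 array 1 or IC20 array 2. The number raised by MCPA-ME was 3 without IC20 array 3, and the number it lowered was 0 without control array 2. It was 9 when IC20 array 2 was left out and 1 when IC20 array 3 was. The number lowered by pyrimethanil was 1 without control array 1 or IC20 array 1 and 5 without IC20 array 3. The number lowered by S-metolachlor was 0 without control array 2, IC20 array 1 or IC20 array 3. In limma fits of 1 pesticide's 6 arrays alone, 13 members were called with carbofuran, where 24.5% of all genes were, and all 13 were among the 22. With S-metolachlor 9 were called, where 37.3% of all genes were, and 2 of them were called in both fits. Diuron gave 5 (18.4% of all genes), pyrimethanil 4 (16.2%), alachlor 0 (8.88%) and MCPA-ME 0 (1.16%).

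Among the folding genes KAR2 (YJL034W), the ER Hsp70 gene and a standard target of the unfolded protein response, changed little. With carbofuran it was at 12172, 12049.5 and 11858 in the controls and 13639, 14787 and 13374 at the IC20. All 3 treated arrays were above the controls, and the level rose 1.16-fold (log2 change 0.21, limma adjusted p = 0.0459). This call was lost without any 1 of the 6 carbofuran arrays (adjusted p 0.0528 to 0.176). With the other 5 pesticides KAR2 was not called, and its log2 change lay between -0.22 with pyrimethanil and 0.08 with diuron. PDI1, the essential disulfide isomerase gene, was called with none of the 6. Its log2 change was -0.36 with pyrimethanil (95% interval -0.66 to -0.07) and -0.33 with S-metolachlor (-0.62 to -0.04). In the 6 S-metolachlor arrays alone PDI1 was called lower.

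EUG1 and CNE1 rose with carbofuran, diuron and MCPA-ME. EUG1 (YDR518W) encodes a relative of protein disulfide isomerase and CNE1 (YAL058W) the yeast relative of calnexin, a lectin chaperone. With MCPA-ME, CNE1 was at 1024, 977 and 1006 in the controls and 1447, 1118 and 1378 at the IC20, and the groups did not overlap (1.30-fold, log2 change 0.38, limma adjusted p = 0.00249). With diuron it was at 1099, 1106 and 1027 in the controls and 1302, 1353 and 1299 at the IC20, again without overlap (1.22-fold, log2 change 0.29, adjusted p = 0.0227). With carbofuran it rose by 0.25 on the log2 scale. EUG1 was at 2537, 2846 and 2606 in the controls and 3079, 3289 and 3194 at the IC20 with diuron, without overlap (1.20-fold, log2 change 0.26, adjusted p = 0.0449). It rose by 0.37 with MCPA-ME, where the groups overlapped, and by 0.31 with carbofuran. The diuron call of EUG1 was lost without any 1 array but control array 2 (adjusted p 0.0722 to 0.151), and that of CNE1 without control array 3 or IC20 array 1 or 2 (0.0564 to 0.118). The carbofuran call of EUG1 was lost without IC20 array 2 (0.058), and that of CNE1 without control array 1 or IC20 array 2 (0.131 to 0.132). With all 18 controls as 1 group the carbofuran change of CNE1 was -0.086 and not called.

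With pyrimethanil EUG1 went from 2876 ± 57.5 to 2479 ± 124 (SD, n = 3), and all 3 IC20 values lay under the controls. Its log2 change of -0.22 did not pass limma's test (adjusted p = 0.0957), although EUG1 was called lower in the 6 pyrimethanil arrays alone. In the 6 S-metolachlor arrays alone it was called higher, with a log2 change of 0.21 that did not pass in the fit of all arrays (adjusted p = 0.0745). The difference between the pyrimethanil change of EUG1 and its mean change with the other 5 pesticides was -0.48 and did pass (limma adjusted p = 0.00168).

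MPD2 (YOL088C), of the same disulfide isomerase family, fell with carbofuran, MCPA-ME and pyrimethanil. With pyrimethanil it was at 1298, 1344 and 1246 in the controls and 1042, 1094 and 1136 at the IC20, which did not overlap (1.19-fold lower, log2 change -0.25, limma adjusted p = 0.0264). With MCPA-ME it was at 1352, 1496 and 1317 in the controls and 1224, 1126 and 1133 at the IC20, also without overlap (1.19-fold lower, log2 change -0.26, adjusted p = 0.0191). With carbofuran the log2 change was -0.31 (adjusted p = 0.0021). With diuron the change was 0.11 and not called, but its difference from the mean of the other 5 was 0.31 (adjusted p = 0.0273). The pyrimethanil call was lost without control array 1 or 2 or IC20 array 1 or 2 (adjusted p 0.0722 to 0.109), and the MCPA-ME call without control array 2 or IC20 array 3 (0.0677 to 0.11). MPD1, a further member of the family, rose with carbofuran from 1138 ± 61.7 to 1573 ± 131 (SD, n = 3), a log2 difference of 0.47 (adjusted p = 0.000427 by limma).

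ERJ5 (YFR041C), a gene for a J-domain cochaperone of the ER, had the largest change of the 12 folding genes with any pesticide. With carbofuran it was at 1378, 1178 and 1219 in the controls and 849.8, 541 and 509.9 at the IC20. All treated arrays were lower than the controls, array 1 less so than the others, and the level fell 2.04-fold (log2 change -1.03, SE 0.19, limma adjusted p = 0.000105). Its difference from the mean change with the other 5 pesticides was -1.10 (adjusted p = 0.000164). The J-domain genes SCJ1 and JEM1 were not called with carbofuran (log2 changes -0.17 and -0.22), nor were LHS1 (-0.20) and SIL1 (0.07), which encode nucleotide exchange factors of Kar2. ERO1, the thiol oxidase that drives disulfide formation, was called with 1 pesticide, MCPA-ME, going from 5481 ± 390.2 to 4802 ± 380.4 (SD, n = 3), a log2 difference of -0.19 (adjusted p = 0.0341 by limma). The groups overlapped, and the call was lost without control array 1 or 2 or IC20 array 2 (adjusted p 0.107 to 0.158). In the 6 S-metolachlor arrays alone ERO1 was called higher (log2 change 0.15), and ERJ5 was called too (0.25), neither of them in the fit of all arrays.

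With alachlor the 2 genes of the 43 farthest from no change were folding genes. SIL1 (YOL031C) was at 1019.8, 1106 and 1046 in the controls and 980.5, 955 and 845 at the IC20, with a log2 change of -0.19 (limma adjusted p = 0.244). KAR2 was at 13339, 11253 and 13067 in the controls and 10086, 10991 and 12034 at the IC20, with a log2 change of -0.19 (adjusted p = 0.267). The SIL1 groups did not overlap and the KAR2 groups did.

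As a group, all 12 folding genes had a positive log2 change with diuron, with a median of 0.13 against 0.00 for all genes, and 2 of the 12 rose, where 8.52% of all genes did. With pyrimethanil 3 of 12 were positive, with a median of -0.18 against -0.04, and 1 fell, where 9.71% of all genes did. With carbofuran 4 rose and 2 fell, where 18.4% of all genes rose and 23.7% fell, with a median of 0.08 against -0.01.

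HAC1 (YFL031W), the transcription factor gene of the unfolded protein response, was called with none of the 6 pesticides. With carbofuran it was at 9299.5, 8676 and 8512 in the controls and 9099, 8245 and 9064 at the IC20, and the groups overlapped. Over the 6 pesticides its log2 change ran from -0.25 with MCPA-ME to 0.14 with alachlor. With MCPA-ME it was at 10237, 6095 and 5425 in the controls and 6404, 5569.6 and 5639.8 at the IC20, so the controls themselves differed widely.

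IRE1 (YHR079C), the sensor gene, was at 719.7, 836 and 707 in the controls and 1133, 1176 and 1327 at the IC20 with carbofuran. The groups did not overlap, and the level rose 1.61-fold (log2 change 0.69, limma adjusted p = 0.000142). The carbofuran controls had the lowest mean of the 6 control groups for IRE1, which ranged from 754 to 1272, and the call was lost with all 18 controls as 1 group. With the other 5 pesticides IRE1 was not called, and its log2 change lay between -0.19 and 0.12.

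**Figure D3:**
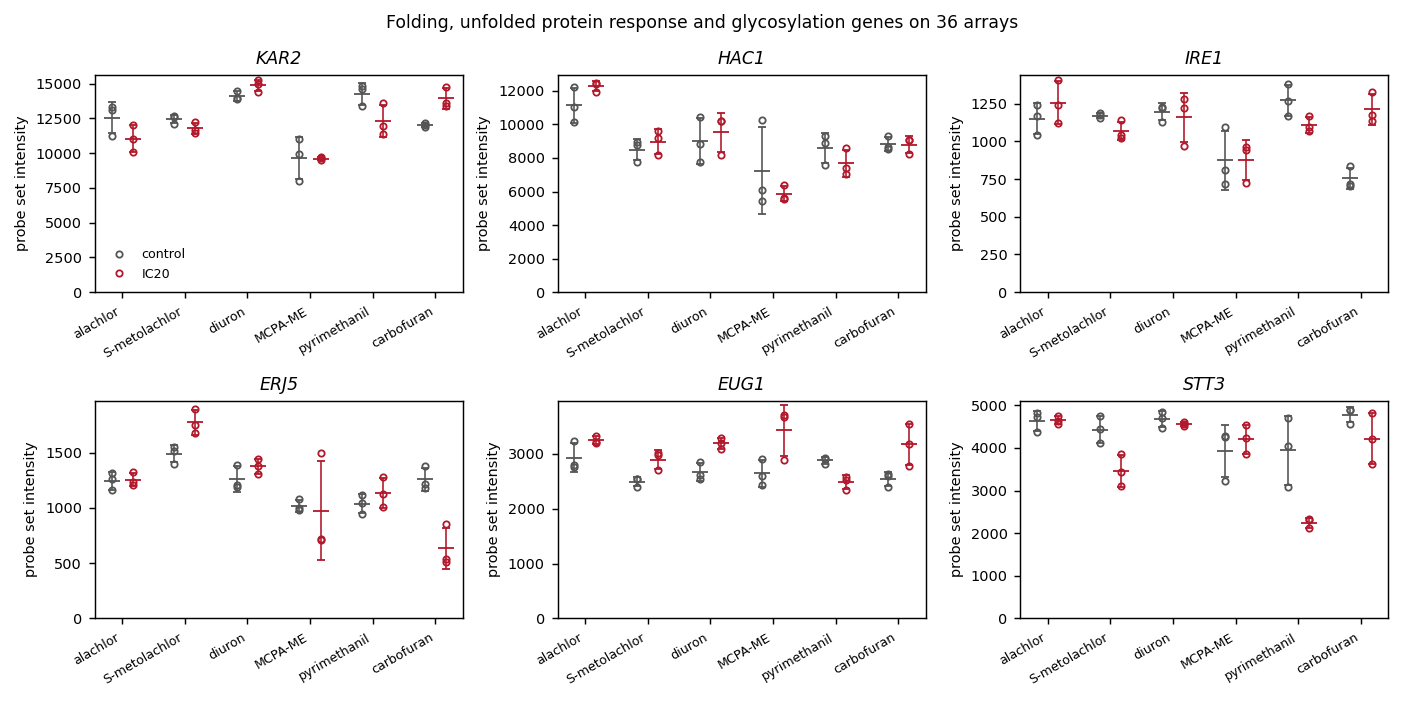
Probe set intensity (vertical axes, from 0) of 6 genes on each of 36 arrays, by pesticide (horizontal axes), with controls in grey and IC20 arrays in red. Open circles are arrays, and horizontal ticks with bars are the mean and SD of 3. With carbofuran the IRE1 arrays lie above and the ERJ5 arrays below their controls, and with pyrimethanil the STT3 arrays lie below theirs.

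Genes of ER-associated degradation were split with carbofuran, with 4 of 8 higher and 1 lower, where 18.4% of all genes were higher and 23.7% lower. The median log2 change was 0.21 against -0.01 for all genes. The 4 were HRD1, the ubiquitin ligase of the ER membrane, HRD3 and USA1, its partner subunits, and UBC7, a ubiquitin-conjugating enzyme that works with it. USA1 (YML029W) was at 359, 436 and 344 in the controls and 519, 571 and 648 at the IC20, without overlap (log2 change 0.61, limma adjusted p = 0.000133). HRD1 went from 1531 ± 169.8 to 2078 ± 261 (SD, n = 3), a log2 difference of 0.44 (adjusted p = 0.000618 by limma) and UBC7 from 4222 ± 357 to 5626 ± 294 (0.42, adjusted p = 0.00149). HRD3 rose by 0.28 on the log2 scale (adjusted p = 0.0416), a call lost without any 1 array but control array 3 (adjusted p 0.0579 to 0.142). The carbofuran controls had the lowest mean of the 6 control groups for USA1, which ranged from 380 to 627. USA1 lost the call with all 18 controls as 1 group, and HRD1 in the 6 carbofuran arrays alone.

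UBC6, a membrane-anchored ubiquitin-conjugating enzyme gene, went the other way, from 3387 ± 97.7 to 2349 ± 397 with carbofuran (SD, n = 3), a log2 difference of -0.54 (adjusted p = 0.00108 by limma). Its control mean was the highest of the 6 control groups, which ranged from 1693 to 3387, and with all 18 controls as 1 group its log2 change was 0.15 and not called. Not called with carbofuran were DER1, a membrane protein of the Hrd1 complex (-0.02, 95% interval -0.16 to 0.12), CUE1, the membrane anchor of Ubc7 (0.14, -0.01 to 0.29), and YOS9, a lectin that reads the glycans of misfolded proteins (-0.12, -0.31 to 0.08).

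Other pesticides moved single degradation genes. DER1 (YBR201W) was at 1135, 1095 and 1143 in the controls and 1381, 1390.4 and 1342 at the IC20 with diuron, without overlap (1.22-fold, log2 change 0.29, limma adjusted p = 0.00446). That call held on leaving out any 1 diuron array and was lost with all 18 controls as 1 group. With MCPA-ME DER1 was at 1243, 1400.0 and 1522 in the controls and 1532, 1676 and 1544 at the IC20, without overlap (1.14-fold, log2 change 0.19, adjusted p = 0.0482). The MCPA-ME call was lost without control array 1 or 2 or IC20 array 2 or 3 (adjusted p 0.0697 to 0.298). CUE1 (YMR264W) was at 3098, 3343 and 3318 in the controls and 3882, 4174 and 3721 at the IC20 with S-metolachlor, without overlap (1.21-fold, log2 change 0.27, adjusted p = 0.00688), and this call held in every alternative run.

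HRD3 (YLR207W) was called in both directions. With pyrimethanil it was at 707, 515 and 536 in the controls and 459, 489 and 428 at the IC20, without overlap (1.27-fold lower, log2 change -0.34, limma adjusted p = 0.0335). With MCPA-ME the groups overlapped and the log2 change was 0.31 (adjusted p = 0.0468). The pyrimethanil call was lost without control array 1 or IC20 array 1 or 3 (adjusted p 0.0794 to 0.313), and the MCPA-ME call without control array 1 or 3 or IC20 array 1 or 3 (0.0614 to 0.241). Its change differed among the 6 pesticides (limma F test, adjusted p = 0.00422).

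Genes of the signal recognition particle fell with carbofuran. Of the 6 particle protein genes 5 fell, as did YKL154W, which encodes the membrane subunit of the receptor and is given here by its systematic name, as is the gene of the receptor GTPase, YDR292C. Thus 6 of the 8 genes fell, where 23.7% of all genes did. Together they had a median log2 change of -0.58 against -0.01 for all genes, and all 8 changes were negative. SRP21 (YKL122C) encodes a small protein of the particle and was at 7615, 6235 and 6806 in the controls and 3749, 2489 and 2433 at the IC20, which did not overlap. It fell 2.42-fold (log2 change -1.28, SE 0.18, limma adjusted p = 5.43e-06), the largest change of the 43 genes with any pesticide. SRP14 (YDL092W), another small particle protein, was at 4878, 4252 and 4883 in the controls and 3206, 2224 and 2169.5 at the IC20 (1.87-fold lower, log2 change -0.90, adjusted p = 3.33e-05). SRP72 (YPL210C), a core protein of the particle, was at 4477, 3777 and 4260.3 in the controls and 3201, 2097 and 1828 at the IC20 (1.80-fold lower, log2 change -0.85, adjusted p = 2.93e-05). In each of these 3 genes IC20 array 1 lay between the controls and the other treated arrays.

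SEC65, SRP68 and YKL154W fell less far. SEC65, a particle protein needed for Srp54 to join, went from 5224 ± 307 to 3357 ± 812 (SD, n = 3), a log2 difference of -0.66 (adjusted p = 2.04e-05 by limma). SRP68 went from 3570.2 ± 53.0 to 2555 ± 289 (-0.49, adjusted p = 0.000261) and YKL154W from 2126 ± 128 to 1508 ± 224 (-0.51, adjusted p = 1.00e-04). SRP54, the GTPase that binds the signal sequence, was at 6439, 5901 and 7146 in the controls and 7234, 3750.3 and 5235 at the IC20. Its groups overlapped, and its log2 change of -0.31 was not called (95% interval -0.59 to -0.03, adjusted p = 0.0683). YDR292C, the receptor GTPase, had a log2 change of -0.24 (adjusted p = 0.0998).

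**Figure D4:**
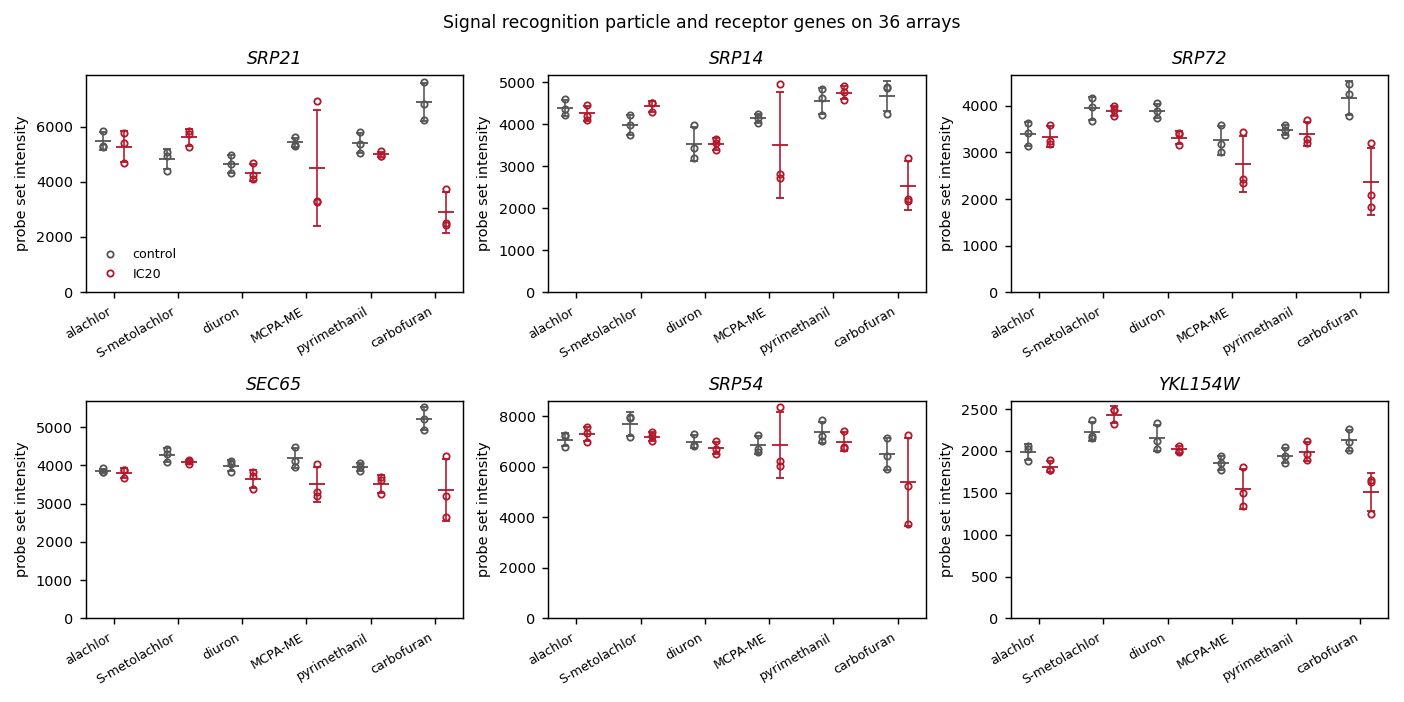
Probe set intensity (vertical axes, from 0) of 5 signal recognition particle genes and the receptor gene YKL154W on each of 36 arrays, by pesticide (horizontal axes), with controls in grey and IC20 arrays in red. Open circles are arrays, and ticks with bars are the mean and SD of 3. With carbofuran the treated arrays of SRP21, SRP14, SRP72, SEC65 and YKL154W lie under their controls, whereas SRP54 overlaps.

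The calls of SRP14, SRP21, SRP68, SRP72 and YKL154W with carbofuran held in every alternative run, and that of SEC65 was lost in the 6 carbofuran arrays alone. For all particle genes that fell, the carbofuran controls had the highest mean of the 6 control groups. These means ranged from 4641 to 6885 for SRP21, 3539 to 4671 for SRP14 and 3262 to 4172 for SRP72. They ranged from 3862 to 5224 for SEC65 and from 2450 to 3570 for SRP68. With all 18 controls as 1 group the calls held, but the sizes of those changes are not given here. On each array the mean log2 level of the 8 genes, set against the mean of its own controls, was -0.34, -0.77 and -0.86 at the carbofuran IC20 and between -0.06 and 0.06 in the controls. At the MCPA-ME IC20 it was -0.39, 0.17 and -0.34, so array 2 stood apart. With MCPA-ME 7 of the 8 genes had a negative log2 change, with a median of -0.26, and YKL154W was called (-0.27, limma adjusted p = 0.0386). That call was lost without control array 2 or 3 or IC20 array 1 or 3 (adjusted p 0.0656 to 0.249). With the other 4 pesticides none of the 8 was called, and the medians lay between -0.10 and -0.03.

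**Figure D5:**
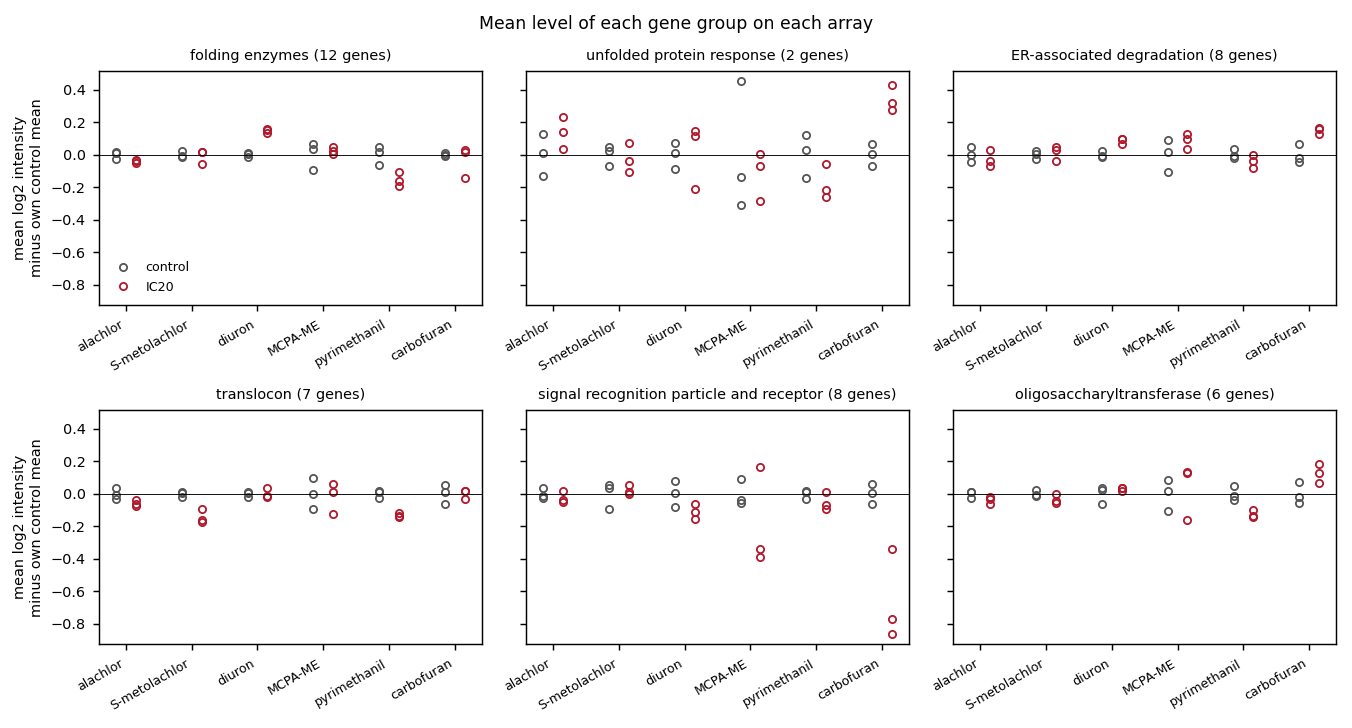
Mean log2 intensity of the genes of each role on each array, minus the mean of that pesticide's own controls (vertical axes), by pesticide (horizontal axes), with controls in grey and IC20 arrays in red; each circle is 1 array. The signal recognition particle and receptor genes reach -0.86 with carbofuran, and the translocon genes stay between -0.17 and 0.10.

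Few calls fell on the translocon genes. Of the 7, carbofuran lowered SSS1, the small gamma subunit of the channel, from 10355 ± 419.6 to 8204 ± 964 (SD, n = 3), a log2 difference of -0.34 (adjusted p = 0.000588 by limma). The groups did not overlap, and the call was lost in the 6 carbofuran arrays alone. MCPA-ME raised SBH2 (YER019C-A), the beta subunit of the Sec61-like Ssh1 channel, which was at 9372, 9374 and 10982 in the controls and 11328, 11542 and 12167 at the IC20, without overlap (1.18-fold, log2 change 0.24, adjusted p = 0.00214). Its difference from the mean change with the other 5 pesticides was 0.24 (adjusted p = 0.00985). SEC62 and SEC63, of post-translational translocation, were called with none of the pesticides, and their log2 changes lay between -0.15 and 0.05. SBH1, the beta subunit of the Sec61 channel, was not called either, with log2 changes between -0.21 and 0.07. With S-metolachlor and pyrimethanil none of the 7 was called, but their mean log2 level lay under the controls on every treated array. Set against its own controls, it was -0.16, -0.09 and -0.17 with S-metolachlor and -0.14, -0.14 and -0.12 with pyrimethanil. The controls lay between -0.03 and 0.02. The median log2 changes were -0.13 and -0.06, against -0.02 and -0.04 for all genes.

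SEC61, the gene of the channel itself, was called with none of the pesticides but varied more. With S-metolachlor it was at 10853, 10376 and 10633 in the controls and 7298, 8577 and 7197 at the IC20, and with pyrimethanil at 13596, 11526 and 14211 in the controls and 8539.6, 8531 and 10272 at the IC20, and neither pair of groups overlapped. The log2 changes were -0.47 (95% interval -0.89 to -0.05, limma adjusted p = 0.0927) and -0.52 (-0.94 to -0.11, adjusted p = 0.0793). With MCPA-ME SEC61 was at 14037, 9675 and 5273 in the controls and 9871, 5488 and 7737 at the IC20, and the spread of those controls enters the error shared by all groups. In the 6 arrays of S-metolachlor alone, and of pyrimethanil alone, SEC61 was called lower.

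Among the oligosaccharyltransferase genes STT3 (YGL022W), the catalytic subunit, changed most. With pyrimethanil it was at 4705, 3083 and 4046 in the controls and 2328, 2110.3 and 2306 at the IC20. All treated arrays lay under the controls, which themselves differed, and the level fell 1.73-fold (log2 change -0.79, SE 0.12, limma adjusted p = 3.41e-05). This call held in every alternative run. Its difference from the mean change with the other 5 pesticides was -0.70 (adjusted p = 0.000712). With S-metolachlor STT3 was at 4105, 4756 and 4434 in the controls and 3108, 3855 and 3428 at the IC20, without overlap (1.28-fold lower, log2 change -0.36, adjusted p = 0.0288), a call lost without control array 2 or 3 or IC20 array 1 or 3 (adjusted p 0.0645 to 0.14).

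None of the other 5 oligosaccharyltransferase genes was called with pyrimethanil or S-metolachlor in the fit of all arrays. In the 6 S-metolachlor arrays alone SWP1 was called lower (log2 change -0.17), and its groups did not overlap. With carbofuran 3 of the 6 rose, where 18.4% of all genes did: OST2 by 0.29 on the log2 scale (limma adjusted p = 0.00793), OST1 by 0.20 (adjusted p = 0.0155) and WBP1 by 0.18 (adjusted p = 0.0228), the last with overlapping groups. SWP1 (0.20, adjusted p = 0.0552), OST3 (0.08) and STT3 (-0.19) were not called. The carbofuran controls had the lowest mean of the 6 control groups for OST1 (range 7480 to 9988), OST2 (4975 to 6142) and WBP1 (9058 to 11446). The OST2 call was lost without control array 1 (adjusted p = 0.0687). That of OST1 was lost without control array 1 or 3 or IC20 array 3 (0.0619 to 0.0824), and that of WBP1 without control array 1 or 3 or IC20 array 2 or 3 (0.0635 to 0.167). In the 6 carbofuran arrays alone none of the 3 was called, and with all 18 controls as 1 group OST2 was not called and the changes of OST1 (-0.085) and WBP1 (-0.000885) were negative and not called.

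Control and IC20 arrays of equal replicate number correlated above 0.1 in every pair for diuron and pyrimethanil. The labels state no pairing, and the highest correlation of any pair, 0.486, was with carbofuran. With the replicate number as a block, 6 members in place of 3 were lower with pyrimethanil. The added genes were SEC61 (log2 change -0.52, limma adjusted p = 0.0422), SCJ1 (-0.48, 0.0402) and SSH1 (-0.17, 0.0476), the channel gene of the Ssh1 translocon. With diuron the block added OST3 (log2 change 0.16, adjusted p = 0.0439). The shares of all genes called under the block are not given here. These counts therefore do not set the members apart from other genes.

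Alachlor and S-metolachlor are both chloroacetanilides, and their doses differ, so their values are given side by side with no comparison. The log2 change of STT3 was 0.00 with alachlor and -0.36 with S-metolachlor. That of CUE1 was 0.04 and 0.27, that of SEC61 was -0.04 and -0.47, and that of PDI1 was 0.00 and -0.33. These genes had some of the largest changes with S-metolachlor, so their values do not describe the other members. SEC61 and PDI1 were called with neither pesticide, and no difference between the pesticides was tested.

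Of 69 other genes of ER protein handling, listed by name, 68 were measured. With carbofuran 12 of the 68 rose and 9 fell. That is 30.9% called, against 42.2% of all genes, and the median log2 change was 0.16 against -0.01. The largest called changes were SGT2 (-0.76), a cochaperone for tail-anchored proteins, PMT3 (0.61), a protein O-mannosyltransferase, and SFB2 (0.61), a relative of the COPII coat subunit Sec24. SEC66 and SEC72, partners of Sec63, both fell (-0.21 and -0.41). Of 14 genes that assemble the N-linked glycan, 4 rose and 1 fell with carbofuran, or 35.7% called against 42.2% of all genes, and 13 changes were positive.

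With pyrimethanil 13 of the 68 fell and 1 rose, where 9.71% of all genes fell and 6.39% rose. With S-metolachlor 9 fell and 5 rose, where 14.4% of all genes fell and 10.1% rose. Both shares called were 20.6%, against 16.1% and 24.4% of all genes. SEC31, a gene of the COPII coat that buds vesicles from the ER, fell with both (-0.78 and -0.82), and 4 of 11 COPII genes fell with each, against the same 9.71% and 14.4% of all genes. Among called genes it was followed with pyrimethanil by MNS1 (-0.76), the ER mannosidase that trims glycans, and ALG3 (-0.69), a mannosyltransferase of glycan assembly. With S-metolachlor UBX2 (-0.91), which recruits Cdc48 to the ER membrane, and MDY2 (-0.79), of the tail-anchored protein pathway, fell. DSK2, a ubiquitin receptor gene, had larger log2 changes that were not called, -1.04 with pyrimethanil (limma adjusted p = 0.165), -1.06 with S-metolachlor (adjusted p = 0.123) and -0.91 with MCPA-ME (adjusted p = 0.226). MCPA-ME raised 9 and lowered 2 of the 68, or 16.2% called against 18.6% of all genes. The largest called changes were ASI1 (0.43), a ubiquitin ligase subunit of the inner nuclear membrane, CWH41 (0.43), the glucosidase that starts glycan trimming, and OST4 (0.37), a small oligosaccharyltransferase subunit. Diuron raised 3 of the 68, where 8.52% of all genes rose, namely FPR2 (0.41), SPC2 (0.24) and CPR5 (0.20), and alachlor raised CWH41 (0.36) and lowered ALG13 (-0.33), or 2.94% called against 5.03%.

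The changes of 22 of the 43 genes differed among the 6 pesticides by limma's F test, or 51.2% against 43.3% of all genes. Set against the mean of the other 5 pesticides, carbofuran differed for 19 of the 43 genes (background 41.4%), pyrimethanil for 3 (8.02%), S-metolachlor for 3 (12.7%), MCPA-ME for 2 (8.63%), diuron for 1 (5.27%) and alachlor for 0 (0.330%). These sum to 28, and to 44 without MCPA-ME IC20 array 2. The shares of all genes without that array are not given here, so the 44 describes the members only. For SRP21 the difference was -1.20 with carbofuran (limma adjusted p = 4.70e-05) and 0.61 with S-metolachlor (adjusted p = 0.0434). The S-metolachlor change of SRP21 was 0.22 and itself not called, and the mean it was set against includes carbofuran. HRD1 differed by -0.33 with S-metolachlor (adjusted p = 0.0378), and ERO1 by -0.22 with MCPA-ME (adjusted p = 0.04997). The S-metolachlor change of HRD1 was -0.25 and itself not called in the fit of all arrays. The mean it was set against includes the carbofuran change of 0.44.

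Untreated levels also differed between experiments. By limma's F test 31 of the 43 genes, or 72.1%, differed among the 6 control groups, against 78.9% of all genes. The mean control level of ERO1 ranged from 4879 to 8506 (limma adjusted p = 5.25e-10) and that of KAR2 from 9662 to 14279 (adjusted p = 1.92e-05). That of SRP21 ranged from 4641 to 6885 (adjusted p = 0.075) and that of STT3 from 3923 to 4779.7 (adjusted p = 0.0642).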

How the data were processed

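Linear intensities, 1 per probe set and array, were deposited by the authors. They were made with Affymetrix Expression Console, per the submitters' processing notes; no source used here gives its version, the normalization or the probe summary. Of 5716 probe sets, 5498 had 1 gene name in the platform annotation and 218 did not, which gave 5449 genes; 47 genes had several probe sets and were read from the brightest by mean over the 36 arrays. Each of the 43 members had 1 probe set. Values under 32 were set to 32 before log2. A limma model (version 3.58.1, under R 4.3.3) with a mean for each group used all arrays together and left 24 residual degrees of freedom. Each IC20 group was set against its own control, two-sided, with Benjamini-Hochberg adjustment across all genes. The code was tested on simulated data. The number of arrays, 3 a group, limits the precision.

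The members, lists and tests were chosen with earlier results of these data known. Array values, fold and adjusted p were given for up to 4 called members per pesticide with the largest change and no overlap, for the 2 largest changes with alachlor, and for other members where a result turns on them. Up to 3 called other ER genes per pesticide were named; SEC66, SEC72 and DSK2 were named after their values were seen. Over all genes, the deviations of control and IC20 arrays of equal replicate number were correlated with each other. The correlation was above 0.1 in every pair for diuron (0.352 to 0.402) and pyrimethanil (0.173 to 0.380). With each of the other 4 pesticides at least 1 pair fell short, although carbofuran also held pairs at 0.447 and 0.486. The labels state no pairing. Arrays of unequal number were not compared, so this check does not show that the arrays were paired. Alternatives changed the normalization, floor, filter, probe sets, arrays fitted, controls, replicate block, variance model and array weights, and left out each array. Leaving out both of the most distant arrays at once (the second at the MCPA-ME IC20, the first at the carbofuran IC20) was chosen after seeing the data. Promoter and protein sequences were not analysed here.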

Additional observations from a re-analysis of the deposited data

Results flagged for a closer look

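The changes of 22 genes differed among the 6 pesticides by limma's F test, adjusted over all 5449 genes, where 43.3% of all genes passed. Among folding genes the adjusted p was 0.00323 for ERJ5, 0.00564 for EUG1, 0.00925 for MPD1, 0.0101 for CNE1, 0.0178 for ERO1, 0.0251 for MPD2 and 0.0313 for KAR2. It was 0.00348 for the sensor gene IRE1. Among degradation genes it was 0.00422 for HRD3, 0.00428 for HRD1, 0.00444 for USA1, 0.0341 for UBC6 and 0.0418 for DER1. For the translocon genes SSS1 and SBH2 it was 0.0232 and 0.0251. Among signal recognition particle and receptor genes it was 0.000778 for SRP21, 0.00206 for SRP14, 0.00386 for YKL154W, 0.0071 for SRP72, 0.00911 for SEC65 and 0.0463 for SRP68. For the oligosaccharyltransferase gene STT3 it was 0.0013.

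For single pesticides, the largest differences from the mean change with the other 5 (log2, limma adjusted p under 0.05) were SRP21 at -1.20 and ERJ5 at -1.10 with carbofuran, and STT3 at -0.70 and EUG1 at -0.48 with pyrimethanil. They were SRP21 at 0.61 and HRD1 at -0.33 with S-metolachlor, MPD2 at 0.31 with diuron, and SBH2 at 0.24 and ERO1 at -0.22 with MCPA-ME. For every pesticide but carbofuran, the mean of the other 5 includes the carbofuran change. SRP21 and HRD1 with S-metolachlor, MPD2 with diuron and EUG1 with pyrimethanil were not called against their own controls in the fit of all arrays.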

How the results depend on the processing

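Of the 38 called combinations of gene and pesticide, 10 kept the call in every alternative: MPD1, ERJ5, UBC7, SRP14, SRP21, SRP68, SRP72 and YKL154W with carbofuran, STT3 with pyrimethanil and CUE1 with S-metolachlor. The other 28 lost it in at least 1, and 21 of the 38 kept it on leaving out any 1 array. With all 18 controls as 1 group 4 log2 changes with carbofuran turned sign: CNE1 (-0.086), UBC6 (0.15), OST1 (-0.085) and WBP1 (-0.000885). Medians over a role turned sign in 42 of 684 cases, none of them over 0.191 in size.

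Counts of members called (higher, then lower) moved by over 1.5 times as follows. Apart from the fits of a pesticide's own 6 arrays, the shares of all genes called under these settings are not given here. The counts therefore do not set the members apart from other genes. With quantile normalization 1 was higher with pyrimethanil and 2 with S-metolachlor. With median centring 1 was lower with MCPA-ME, and 1 was higher and 1 lower with pyrimethanil. Without the dimmest 25% of genes, with limma's trend and robust options, and with array weights, 3 were higher with MCPA-ME. In the pesticide's own 6 arrays 6 were higher with carbofuran, 1 lower with diuron, 0 and 0 with MCPA-ME, and 4 and 5 with S-metolachlor. With all 18 controls as 1 group there were 2 and 5 with alachlor, 8 lower with MCPA-ME, 6 lower with pyrimethanil, and 4 and 5 with S-metolachlor. With the replicate block there were 5 lower with MCPA-ME, 6 lower with pyrimethanil, and 2 and 4 with S-metolachlor. For MCPA-ME and S-metolachlor, not every pair of equal number correlated above 0.1. Array weights, whose estimation stopped before convergence, gave 2 lower with alachlor, 16 lower with carbofuran, 9 and 4 with diuron, 1 and 14 with pyrimethanil, 9 and 10 with S-metolachlor, 36 genes whose change differed among pesticides and 100 differences of 1 pesticide from the other 5. Without the 2 arrays farthest from their groups there were 1 lower with diuron, 10 lower with MCPA-ME, 1 and 7 with pyrimethanil, 4 and 3 with S-metolachlor, and 67 differences of 1 pesticide from the other 5.

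Leaving out each array in turn gave 6 to 11 higher and 10 to 14 lower with carbofuran, 1 to 3 higher with diuron, 3 to 5 higher and 0 to 9 lower with MCPA-ME, 1 to 5 lower with pyrimethanil and 0 to 1 lower with S-metolachlor. It gave 17 to 28 genes whose change differed among pesticides, 27 to 37 whose control level differed, and 22 to 44 differences of 1 pesticide from the other 5. The shares of all genes on leaving out arrays are not given here, and the causes were not tested.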
